A study of Mus musculus with 4 samples.

Results

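The interneuron lineage genes are a set of 10 genes that mark the path from ventral forebrain progenitor to inhibitory interneuron. They are the homeobox transcription factor genes Dlx1, Dlx2, Dlx5 and Dlx6, the glutamate decarboxylase genes Gad1 and Gad2, the LIM homeobox gene Lhx6, the calcium-binding protein gene Calb2, and the neuropeptide genes Sst and Npy. Members were found by gene symbol in the gene count table, and all 10 were present among its 23240 rows. The table came from RNA-seq of sorted mouse cortical cells taken at embryonic day 15.5. The embryos came from heterozygous Nestin-GFP parents mated to homozygous DCX-mRFP parents and were double positive for Nestin-GFP, a green reporter of neural progenitors, and DCX-mRFP, a red reporter of newly formed neurons. Neurons were sorted as cells with both colours and NPCs (neural progenitor cells) as cells with green only, in 2 duplicate libraries each, so both groups carried both transgenes. The labels do not say whether the duplicates came from separate litters, so the spread between duplicates may be technical only. A p-value here reflects that spread, which the fit estimates for each gene with help from all tested genes.

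Cortical interneurons are not born in the cortex. They arise in the ganglionic eminences of the ventral forebrain, where Dlx factors drive inhibitory fate, and migrate into the cortex along its surface and deep zones during this stage of development. Gad1 and Gad2 encode the enzymes that make the inhibitory transmitter GABA, Lhx6 marks the interneurons of the medial ganglionic eminence, and Sst, Npy and Calb2 mark subtypes of the maturing cells.

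The 250 bases upstream of the annotated start are shown for the neuropeptide genes Sst and Npy, which were both higher in neurons, for the neighbouring genes Dlx1 and Dlx2, which were both lower, and for Dlx6os1, the long antisense RNA of the Dlx5 and Dlx6 cluster. They are RefSeq sequences of build GRCm38.p6, written 5′ to 3′ on the gene's own strand, and capitals mark the motifs TGACGTCA and TAATTA.
Sst (chr16:23890845-23891094, minus strand): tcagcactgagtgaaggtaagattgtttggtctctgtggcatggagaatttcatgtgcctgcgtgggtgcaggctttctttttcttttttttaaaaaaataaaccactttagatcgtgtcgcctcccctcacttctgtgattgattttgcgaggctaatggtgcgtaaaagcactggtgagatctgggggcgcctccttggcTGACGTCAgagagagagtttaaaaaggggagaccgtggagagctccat
Npy (chr6:49822460-49822709, plus strand): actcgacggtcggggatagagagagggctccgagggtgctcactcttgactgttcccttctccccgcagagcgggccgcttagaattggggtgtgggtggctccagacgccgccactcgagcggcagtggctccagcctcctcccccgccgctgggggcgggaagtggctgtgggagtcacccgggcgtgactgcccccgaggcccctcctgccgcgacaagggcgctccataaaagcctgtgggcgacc
Dlx1 (chr2:71529195-71529444, plus strand): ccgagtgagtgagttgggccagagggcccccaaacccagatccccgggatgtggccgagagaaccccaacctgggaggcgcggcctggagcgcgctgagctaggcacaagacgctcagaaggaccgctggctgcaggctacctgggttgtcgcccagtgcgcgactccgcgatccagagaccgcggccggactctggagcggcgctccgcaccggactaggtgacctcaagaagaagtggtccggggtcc
Dlx2 (chr2:71546755-71547004, minus strand): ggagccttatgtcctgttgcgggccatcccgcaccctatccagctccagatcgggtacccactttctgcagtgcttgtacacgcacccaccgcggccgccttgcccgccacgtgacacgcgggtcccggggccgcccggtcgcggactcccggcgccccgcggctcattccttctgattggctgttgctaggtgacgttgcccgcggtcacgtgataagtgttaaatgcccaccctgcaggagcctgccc
Dlx6os1 (chr6:6869534-6869783, minus strand): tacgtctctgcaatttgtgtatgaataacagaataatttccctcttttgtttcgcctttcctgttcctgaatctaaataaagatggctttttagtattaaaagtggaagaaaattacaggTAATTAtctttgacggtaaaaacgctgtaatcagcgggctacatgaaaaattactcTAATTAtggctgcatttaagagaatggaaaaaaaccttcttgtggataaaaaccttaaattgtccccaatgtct

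TGACGTCA is the cAMP response element, a site long known from the somatostatin promoter, and TAATTA is a core that homeodomain proteins, Dlx proteins among them, can bind. Both strands were searched in the upstream windows of 7 of the 10 members, which had 9 windows between them; Dlx5, Dlx6 and Calb2 had no entry. TGACGTCA was found in the Sst window, 48 bases before the start, and in 1.55% of 32851 mouse windows of the same length. TAATTA was found in 0 of the 9 member windows and in both windows of Dlx6os1, at 130 and 74 bases before the start in the window printed, against 4.84% of all windows. The window of Dlx6os2, a shorter antisense RNA of the same cluster, held no TAATTA. These matches describe letters in a window and say nothing of binding.

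Every library was deep, at 52611828 and 55329294 counts in neurons and 53533953 and 55615142 counts in NPCs. Levels are CPM (counts as a share of the library's total) after scaling of the libraries with TMM factors, which correct for a few strongly expressed genes taking a share of the reads. Log2 changes are neurons over NPCs with their standard error, and a gene was called at an adjusted p under 0.05 over all 15292 genes tested (edgeR, quasi-likelihood F test, Benjamini-Hochberg). The neuron reporter's own gene, Dcx, averaged 1399.8 ± 58.7 CPM in neurons and 480 ± 17.4 CPM in NPCs (SD, n = 2 each), so the NPC libraries held 0.343 of the neuron level of a gene of young neurons. Fewer cells of a type and less RNA per cell cannot be told apart in such bulk libraries.

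All 10 members passed the filter on low counts. Of these, 5 were called higher in neurons, where 35.8% of all tested genes were, and 3 were called higher in NPCs, where 36.9% were. The 8 of 10 called in either direction compare with 72.6% of all tested genes, so the share of members that changed was near that of genes at large. The members called higher in neurons were Gad1, Gad2, Calb2, Sst and Npy, those called higher in NPCs were Dlx1, Dlx2 and Dlx6, and Dlx5 and Lhx6 were not called. The median log2 change of the 10 was 0.32, against -0.019 over all tested genes. The groups did not overlap for 9 of the 10, where 86.0% of all tested genes showed the same: both neuron libraries lay above both NPC libraries for 5 members (41.9% of all tested genes) and below them for 4 (44.0%).

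**Figure D1:**
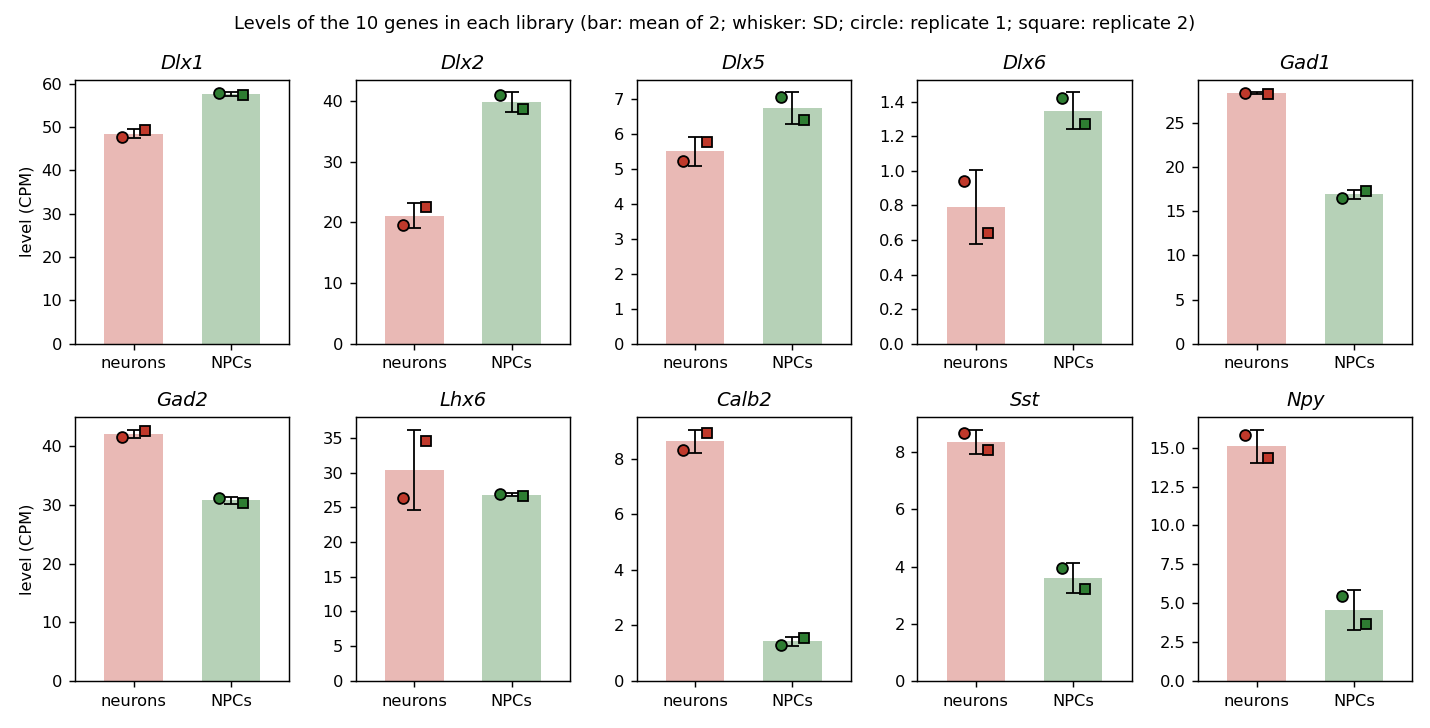
Level in CPM of each of the 10 genes, with neurons left of NPCs; bars are means of 2 libraries, whiskers the SD, circles replicate 1 and squares replicate 2. The groups do not overlap for 9 of the 10 genes, and for Lhx6 the neuron libraries lie on either side of the NPC libraries.

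The members called lower in neurons were all Dlx factors, and within the Dlx1 and Dlx2 pair the shift was unequal. Dlx2, which acts early in ventral progenitors and turns on other Dlx genes, was at 19.6 and 22.5 CPM in neurons, against 41.0 and 38.7 CPM in NPCs. Both neuron libraries lay well below both NPC libraries, and Dlx2 fell in neurons by 0.92 ± 0.08 on the log2 scale, to 0.530 of the NPC level (edgeR adjusted p = 1.66e-08). Dlx1, its neighbour on chromosome 2 with overlapping roles, was at 47.7 and 49.3 CPM in neurons, against 58.0 and 57.4 CPM in NPCs. The groups were again apart, but by much less, and Dlx1 fell in neurons by 0.25 ± 0.06 on the log2 scale (edgeR adjusted p = 0.00133).

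The other Dlx pair, on chromosome 6, acts later in the same cells and was expressed at lower levels. Dlx5 was at 5.22 and 5.79 CPM in neurons, against 7.07 and 6.42 CPM in NPCs. The 2 groups did not overlap, yet the log2 change of -0.29 ± 0.13 missed the threshold narrowly (edgeR adjusted p = 0.0506). It passed with upper-quartile factors, with library size only and with a mean of at least 5 CPM. Dlx1 was also lower with these settings than in the main fit, at -0.35, -0.46 and -0.30. Dlx5 was not called with DESeq2 (adjusted p = 0.158), limma-voom (adjusted p = 0.0558) or a replicate block (adjusted p = 0.0565). Its log2 change was -0.21 without neuron replicate 1 and -0.36 without neuron replicate 2. Dlx6 was the lowest member, with 45.8 and 33.4 counts in neurons, against 82.1 and 75.8 counts in NPCs, or 0.942 and 0.639 CPM against 1.42 and 1.27 CPM. Dlx6 lay lower in both neuron libraries and fell in neurons by 0.77 ± 0.29 on the log2 scale (edgeR adjusted p = 0.0236). That call rests on few reads: the exact 95% Poisson interval of the neuron replicate 2 count of 33 was 22.7 to 46.3, covering counting error only. The Dlx6 call was lost with DESeq2 (log2 change -0.76, adjusted p = 0.102). Its log2 change was -0.51 without neuron replicate 2 and -0.69 without NPC replicate 1.

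Both Dlx clusters hold antisense RNAs, and the use of strand in the counts is not given in the sources used here. Dlx1as, the antisense RNA at Dlx1, shared 335 exonic bases with Dlx1 in GENCODE M21. That is 6.21% of the exonic bases of Dlx1 and 20.6% of those of Dlx1as. If strand was not used in the counting, the rows of Dlx1 and Dlx1as may share reads. Per kilobase of exons, Dlx1as averaged 34.2 CPM in neurons and 37.8 CPM in NPCs, against 8.99 and 10.7 CPM for Dlx1. The share of Dlx1 reads at stake could therefore exceed the share of its bases. The Dlx2 to Dlx1 ratio and the levels per length given below use the same Dlx1 row. Dlx1as was at 52.7 and 58.9 CPM in neurons, against 60.0 and 63.3 CPM in NPCs. These groups were close without overlapping, and the log2 change of -0.14 ± 0.07 was not called (edgeR adjusted p = 0.0607). It was called with library size only (-0.35, adjusted p = 0.000145) and with upper-quartile factors (-0.24, adjusted p = 0.00321). The same held with a mean of at least 5 CPM (-0.19, adjusted p = 0.0189) and with a replicate block (-0.15, adjusted p = 0.0291). Its log2 change was -0.055 without neuron replicate 1 and -0.22 without neuron replicate 2. Dlx6os1, also known as Evf, is an antisense RNA across the Dlx6 locus with 0 exonic bases shared with Dlx6, and the table lists it as Dlx6as1. Dlx6os1 was at 45.6 and 45.5 CPM in neurons, against 40.7 and 40.9 CPM in NPCs. Its neuron libraries lay slightly above both NPC libraries, in the direction opposite to the coding genes of its cluster, at 0.16 ± 0.06 on the log2 scale (edgeR adjusted p = 0.0281). This small change became -0.046 when libraries were scaled by their totals alone. Its call was also lost with upper-quartile factors (adjusted p = 0.394), a mean of at least 5 CPM (adjusted p = 0.101) and DESeq2 (adjusted p = 0.0516). The shorter antisense RNA Dlx6os2, chosen after its values were seen and listed as Dlx6as2, shared 104 exonic bases with Dlx6, or 4.38% of those of Dlx6, and was not called at -0.40 ± 0.28 (edgeR adjusted p = 0.211). The remaining Dlx genes were essentially silent, with at most 2.01 counts in a library for Dlx3 and 0 in each of the 4 libraries for Dlx4, both chosen after their values were seen.

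**Figure D2:**
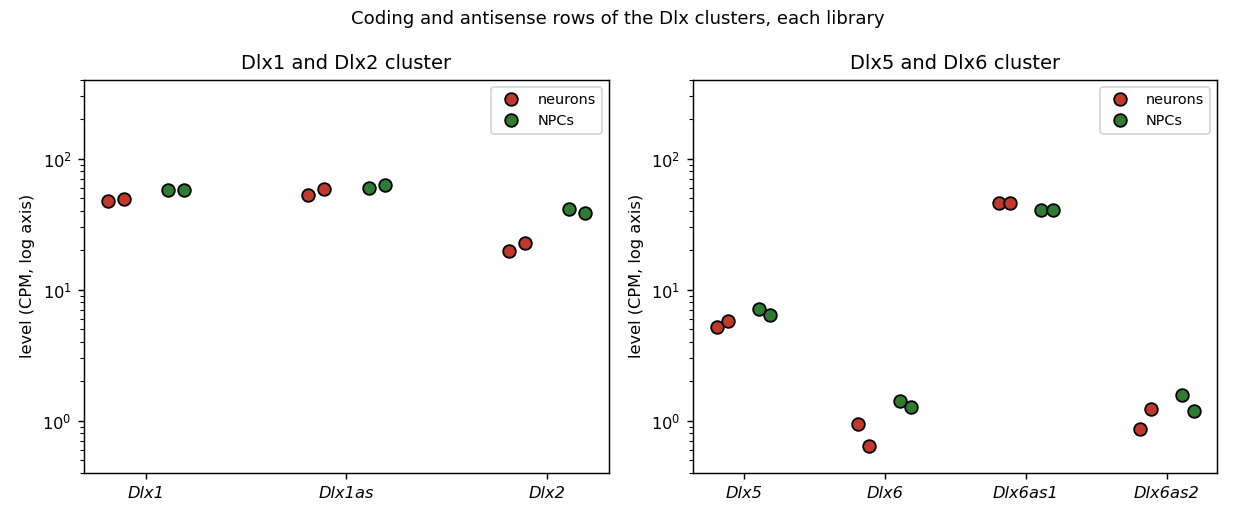
Level in CPM on a log axis of the coding and antisense genes of the 2 Dlx clusters, with 1 point per library and neurons left of NPCs. Levels are not divided by gene length, so points are compared between groups within a gene; Dlx2 shows the widest gap between groups in the first panel.

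The enzymes that make GABA went the other way. Gad1, which encodes GAD67, the enzyme behind most GABA of the brain, was at 28.5 and 28.3 CPM in neurons, against 16.6 and 17.3 CPM in NPCs. The 2 neuron libraries were nearly identical and lay above both NPC libraries, and Gad1 rose with a log2 change of 0.75 ± 0.08, 1.68-fold (edgeR adjusted p = 1.62e-07). Gad2, which encodes GAD65, the form tied to synaptic vesicles, was at 41.7 and 42.7 CPM in neurons, against 31.3 and 30.4 CPM in NPCs. Gad2 also rose in both neuron libraries, with a log2 change of 0.45 ± 0.07, or 1.37-fold (edgeR adjusted p = 9.99e-06). The annotated span of Gad1 overlaps that of an antisense RNA, Gad1os, but their exons shared 0 bases in GENCODE M21.

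Ratios of paralogs within a library do not depend on how libraries are scaled. The ratio of Dlx2 to Dlx1 counts was 0.411 and 0.457 in neurons, against 0.707 and 0.674 in NPCs. Both neuron ratios lay below both NPC ratios, a difference of -0.67 on the log2 scale. For Gad2 over Gad1 the ratio was 1.46 and 1.51 in neurons, against 1.89 and 1.75 in NPCs, so Gad1 made up a larger part of the Gad reads in neurons (difference -0.29). For Dlx6 over Dlx5 the ratio was 0.179 and 0.111 in neurons, against 0.202 and 0.198 in NPCs. The 2 neuron libraries differed from each other by more on that ratio than the higher of them differed from the NPC libraries, and the difference of -0.50 became -0.16 without neuron replicate 2. These differences were not tested; with 2 libraries against 2, an exact two-sided permutation test cannot give a p below 0.333.

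**Figure D3:**
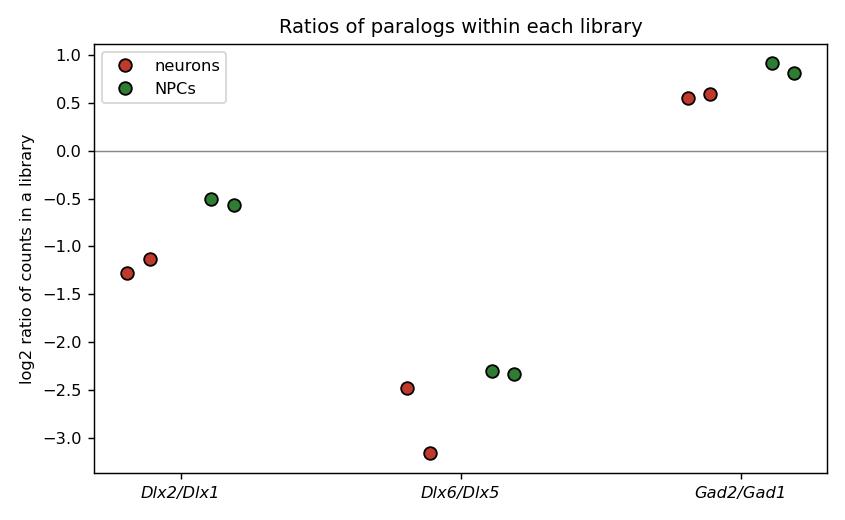
Log2 ratio of the counts of 2 paralogs within each library, with neurons left of NPCs. The Dlx2/Dlx1 and Gad2/Gad1 ratios are lower in both neuron libraries than in both NPC libraries, and the 2 neuron values of Dlx6/Dlx5 lie far apart, at -2.48 and -3.17.

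Lhx6, which acts downstream of Nkx2-1 in cells of the medial ganglionic eminence and is needed for their migration and subtype fate, did not separate the groups. Its level was 26.4 and 34.5 CPM in neurons, against 27.0 and 26.7 CPM in NPCs. Neuron replicate 1 lay below both NPC libraries and neuron replicate 2 above them, so the groups overlapped. The log2 change of 0.18 ± 0.10 was not called (edgeR adjusted p = 0.104). The 2 neuron libraries decided this value: without neuron replicate 1 it was 0.37, and without neuron replicate 2 it was -0.018. With library size only it was -0.025.

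Genes of maturing subtypes showed the largest rises of the set. Calb2, which encodes the calcium-binding protein calretinin, was at 8.33 and 8.93 CPM in neurons, against 1.30 and 1.54 CPM in NPCs. The groups were far apart, and Calb2 rose with a log2 change of 2.60 ± 0.16, or 6.06-fold (edgeR adjusted p = 1.51e-10). Calretinin is also made by Cajal-Retzius cells, early neurons of the cortical surface, and Calb2 was on the list of their markers. Of the 4 other tested markers of that list, 3 were higher in neurons and 1 was lower there, at a summed level of 153 and 157 CPM in neurons, against 42.6 and 42.2 CPM in NPCs. Reln, which is also on the list of other interneuron subtype genes, held most of that sum, and without it the other 3 summed to 10.1 and 10.2 CPM in neurons, against 5.19 and 4.47 CPM in NPCs. Lhx1 was too low to test (3 to 15.4 counts). Of these 3, Trp73, chosen after its values were seen, was higher in neurons at 2.64 ± 0.20 on the log2 scale (edgeR adjusted p = 2.71e-09). Ebf3 was lower in neurons at -0.72 ± 0.17 (edgeR adjusted p = 0.00117). The part of these cells in the Calb2 rise was not tested.

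The neuropeptide genes rose less than Calb2. Npy, which encodes neuropeptide Y, was at 15.8 and 14.3 CPM in neurons, against 5.45 and 3.67 CPM in NPCs. The NPC libraries differed from each other by more than the neuron libraries did in proportion, but the groups stayed apart, and Npy rose with a log2 change of 1.73 ± 0.14, or 3.31-fold (edgeR adjusted p = 1.17e-08). Sst, which encodes somatostatin, was at 8.66 and 8.06 CPM in neurons, against 3.96 and 3.22 CPM in NPCs. Sst lay higher in both neuron libraries and rose with a log2 change of 1.22 ± 0.14, or 2.33-fold (edgeR adjusted p = 5.59e-07).

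**Figure D4:**
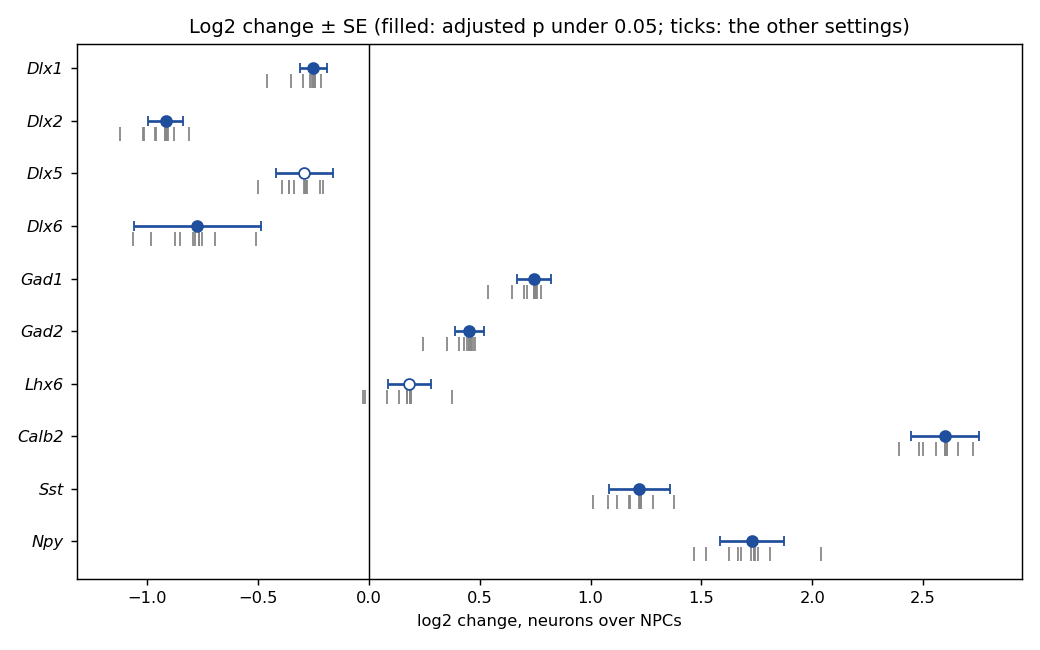
Log2 change of each gene, neurons over NPCs, with its standard error; filled points passed an adjusted p of 0.05 and grey ticks show the same value under the other settings tried. The Dlx genes lie left of 0 and Gad1, Gad2, Calb2, Sst and Npy right of it under each setting shown, while the ticks of Lhx6 fall on both sides.

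Levels can be set against each other only per length. With CPM divided by the length of all annotated exons of a gene in kilobases (GENCODE M21), Npy was the highest of the 10 in neurons at 26.7 CPM per kb, followed by Sst at 11.6, Dlx1 at 8.99, Dlx2 at 7.39, Gad2 at 7.18, Lhx6 at 6.33, Calb2 at 4.95, Gad1 at 3.72, Dlx5 at 2.43 and Dlx6 at 0.333. In NPCs the Dlx factors led instead, with Dlx2 at 14.0 CPM per kb and Dlx1 at 10.7, ahead of Npy at 8.06, Lhx6 at 5.59, Gad2 at 5.24, Sst at 4.98, Dlx5 at 2.98, Gad1 at 2.22, Calb2 at 0.816 and Dlx6 at 0.568. Neighbours whose libraries overlapped were Dlx2 with Gad2 and Gad2 with Lhx6 in neurons, and Gad2 with Sst in NPCs. The order in neurons depends on the length used: per kilobase of the longest transcript, Dlx1 at 11.8 CPM per kb came before Sst at 11.6, Lhx6 at 8.74 before Dlx2 at 8.53, and Gad1 at 7.89 before Gad2 at 7.34 and Calb2 at 6.03. The order in NPCs was the same with both lengths.

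Other factors of ventral progenitors and young interneurons were mostly lower in neurons, and several by far more than the Dlx genes. Of 22 tested, 7 were called higher in neurons and 14 higher in NPCs; the median log2 change was -0.94. The 7 became 4 with library size only and with upper-quartile factors. Olig2, a factor of ventral progenitors and of oligodendrocyte precursors, had a log2 change of -5.53 ± 0.15, and Sox6, which acts in medial eminence interneurons and in dorsal progenitors, one of -1.66 ± 0.06. Zeb2, which steers interneurons toward the cortex but is also expressed in cortical neurons, rose by 1.63 ± 0.06, and the forkhead gene Foxp1 by 0.78 ± 0.06. Named here for their roles after their values were seen, the progenitor factor Gsx2, which acts upstream of Dlx genes, averaged 0.251 ± 0.108 CPM in neurons and 8.13 ± 0.471 CPM in NPCs (SD, n = 2 each). Nkx2-1, the medial eminence factor above Lhx6, averaged 1.23 ± 0.0361 CPM in neurons and 4.02 ± 0.188 CPM in NPCs.

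**Figure D5:**
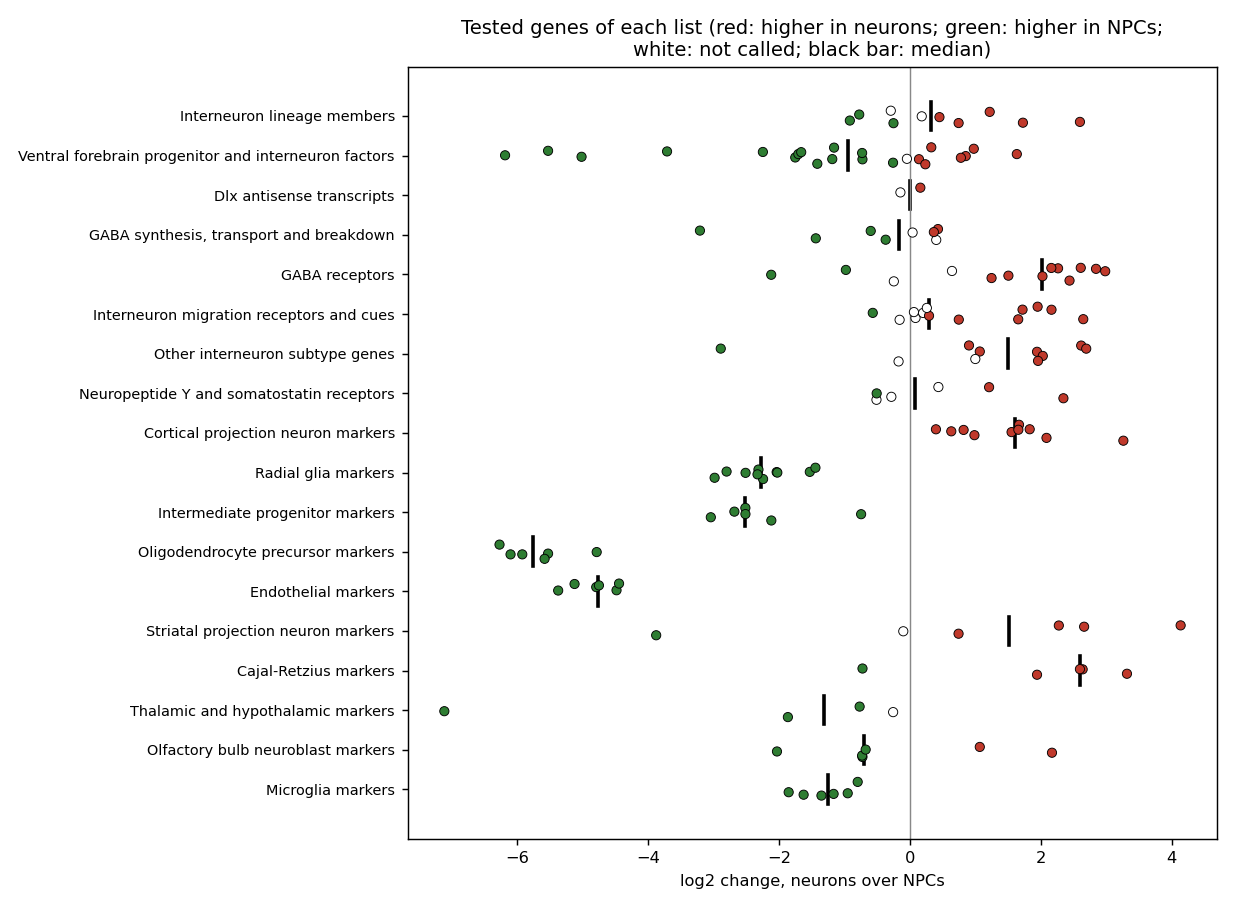
Log2 change, neurons over NPCs, of each tested gene of the 18 lists; red points were called higher in neurons, green points higher in NPCs, white points were not called, and black bars are medians. The 10 interneuron lineage genes lie on both sides of 0, with a median of 0.32, while all tested cortical projection neuron markers lie right of 0 and all tested radial glia markers left of it.

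Genes that handle GABA moved unevenly. Of 8 tested genes of its synthesis, transport and breakdown, 2 were higher in neurons and 4 in NPCs; the median log2 change was -0.16. The glutamine transporter gene Slc38a1 had a log2 change of 0.43 ± 0.05. GABA transaminase, which breaks GABA down and is encoded by Abat, was lower in neurons at -0.60 ± 0.07, and the GABA transporter gene Slc6a11 at -1.44 ± 0.15. Slc32a1, the gene of the vesicular GABA transporter and chosen after its values were seen, was low at 1.13 and 1.51 CPM in neurons, against 1.06 and 0.938 CPM in NPCs, and was not called (edgeR adjusted p = 0.194). Receptor genes for GABA, which most neurons of the cortex express, were higher in neurons for 9 of 13 and lower there for 2 (median 2.03). The metabotropic receptor gene Gabbr1 had a log2 change of 1.25 ± 0.06, and the subunit genes Gabrg1 and Gabra4 were lower in neurons at -2.12 ± 0.19 and -0.98 ± 0.11.

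Of 13 genes of interneuron migration, 7 were higher in neurons and 1 in NPCs; the median log2 change was 0.29. The 1 became 2 with upper-quartile factors and 3 with library size only. The adhesion gene Cntn2 and the Slit receptor gene Robo1 rose with log2 changes of 2.65 ± 0.06 and 2.16 ± 0.06, both also known from axons of projection neurons, and the Erbb4 ligand gene Nrg1 was lower in neurons at -0.57 ± 0.09. The chemokine receptor gene Cxcr4 and the neuregulin receptor gene Erbb4, which guide interneurons on their way and were named after their values were seen, had log2 changes of 0.20 ± 0.15 and 0.09 ± 0.11 that were not called (edgeR adjusted p = 0.223 and 0.493).

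Genes of other interneuron subtypes were higher in neurons for 7 of 10 tested and lower there for 1 (median log2 change 1.51). Reln, the secreted signal of Cajal-Retzius cells and later of some interneurons, averaged 144 ± 2.61 CPM in neurons and 37.6 ± 0.208 CPM in NPCs, and Ndnf had a log2 change of 1.96 ± 0.13. Crh, the gene of corticotropin-releasing hormone, was lower in neurons (-2.89 ± 0.54) at a mean of 0.341 CPM over the groups. Markers of subtypes that mature after birth were near 0: Pvalb had at most 3 counts in a library and Vip at most 1, and neither could be tested. For the receptors of the 2 peptides, 2 of 6 tested were higher in neurons and 1 in NPCs (median 0.08), the 1 becoming 2 with library size only. The Npy receptor gene Npy1r was higher in neurons at 2.35 ± 0.17 on the log2 scale, as was the somatostatin receptor gene Sstr3 at 1.21 ± 0.17, while Sstr2 was lower in neurons at -0.51 ± 0.05.

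Markers of other cell types moved with the groups too, and their part in the members' changes was not tested. Markers of cortical projection neurons, the excitatory majority of the cortex, were higher in neurons for 10 of 10, summing to 4515 and 4573 CPM in neurons, against 1370 and 1374 CPM in NPCs (median log2 change 1.61). Among them, Neurod6 had a log2 change of 1.83 ± 0.06. Markers of striatal projection neurons, inhibitory cells that share Dlx and Gad expression with interneurons, were higher in neurons for 4 of 6 and in NPCs for 1, summing to 51.1 and 52.4 CPM in neurons, against 18.1 and 18.0 CPM in NPCs (median 1.51). Ppp1r1b and Drd1a rose with log2 changes of 2.66 ± 0.09 and 2.28 ± 0.11, Adora2a was lower in neurons at -3.87 ± 0.23, and Drd2 was at 0 in both neuron libraries and at most 2.36 counts in NPCs. Markers of olfactory bulb neuroblasts, which also come from Dlx-expressing progenitors, were higher in neurons for 2 of 6 and in NPCs for 4, summing to 82.5 and 77.7 CPM in neurons, against 132 and 131 CPM in NPCs (median -0.70).

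On the NPC side, radial glia markers were higher in NPCs for 10 of 10, summing to 625 and 648 CPM in neurons, against 3097 and 3077 CPM in NPCs (median log2 change -2.28). Intermediate progenitor markers were higher in NPCs for 6 of 6, summing to 560 and 545 CPM in neurons, against 2754 and 2737 CPM in NPCs (median -2.51). Oligodendrocyte precursor markers were higher in NPCs for 6 of 6, summing to 2.97 and 3.86 CPM in neurons, against 181 and 186 CPM in NPCs (median -5.75). Endothelial markers were higher in NPCs for 6 of 6, summing to 5.51 and 5.71 CPM in neurons, against 168 and 169 CPM in NPCs (median -4.77). Microglia markers were higher in NPCs for 6 of 6, summing to 13.2 and 13.9 CPM in neurons, against 30.0 and 29.5 CPM in NPCs (median -1.26). Markers of thalamus and hypothalamus, where Otp was at 0 in each library, were higher in NPCs for 3 of the 4 tested, summing to 179 and 181 CPM in neurons, against 313 and 316 CPM in NPCs (median -1.31). Lhx2, which cortical progenitors also express, held most of that sum, and without it the other 3 summed to 9.81 and 8.23 CPM in neurons, against 24.1 and 23.5 CPM in NPCs.

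The genes whose pattern lay nearest to that of the 4 Dlx factors were Fbn1, Ap4m1, Rcan3, Thumpd2 and Ccdc58, out of 10983 other genes that averaged 5 CPM or more. Likeness was the distance between the 4 centred log2 CPM values of a gene and the mean of those of the Dlx genes, and it was 0.0201 for Fbn1 and 0.0375 for Ccdc58. With 4 libraries in 2 groups this measure reflects little beyond the size of the log2 change, which was -0.58 for Fbn1.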

How the data were processed

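The authors deposited 1 table of estimated counts per gene and library, not scaled between libraries. Of its 88416 values below 10000, all 88416 were multiples of 1 base of a 101-base read within 0.01 base. CASAVA 1.9, TopHat 1.2.0, SAMtools 0.1.18 and build mm9 are named, with no roles, per the submitters' processing notes; the sources used here do not give the counting tool, annotation or strand.

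Counts were rounded, filtered with filterByExpr (15292 of 23240 rows tested) and scaled with TMM (factors 0.928 and 0.933 in neurons, 1.08 and 1.07 in NPCs). Neurons were compared with NPCs by edgeR 4.0.16 (quasi-likelihood F test, two-sided, no block, R 4.3.3, Benjamini-Hochberg, threshold 0.05). Each SE was obtained as |log2 change| over √F. Duplicates differed by more than sampling noise (chi-square per gene 14.1 in neurons, 4.57 in NPCs). Counts were also simulated for 15292 genes with 1 spread shared by all genes, and 200 genes above a minimum level were changed. Of 50 genes each changed 1.25-, 1.5-, 2- and 4-fold, 26, 42, 49 and 50 were recovered, and 6 of 173 calls were false. In the data 72.6% of tested genes were called, so these shares do not carry over to the data.

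The gene lists (18, the members among them; 153 genes, all found, 3 of them under another symbol, 143 tested) were chosen with earlier results of these data known. All members were named, and of each list the 2 genes with the smallest p in each direction among those called and the gene with the highest mean CPM, not all of them printed, since some are not reported here; Dcx and genes too low to test (Pvalb, Vip, Lhx1, Drd2 and Otp) were named outside this rule, with their values seen, and other such names are marked in the text. Alternatives were other scalings, filters, DESeq2 1.42.0, limma-voom 3.58.1, a replicate block, leaving out each library and counts divided by 2. Leaving out a library leaves 1 in its group, so such a fit takes its spread from the other group's pair alone. Only effect sizes are given for it. Sequences and gene lengths came from RefSeq and GENCODE M21 on GRCm38; no coordinate was matched to the table. Intervals cover counting error only.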

Additional observations from a re-analysis of the deposited data

How the results depend on the processing

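Dlx1, Dlx2, Gad1, Gad2, Sst and Npy kept their direction in 13 of 13 alternatives, and Calb2 in the 12 of 12 that tested it. Each of these genes also kept its call in every alternative that tested it with all 4 libraries. Members called ranged from 4 to 6 higher in neurons and from 2 to 4 higher in NPCs over the settings with all 4 libraries. Genes called in all ranged from 8315 (mean of at least 5 CPM) to 11450 (library size only). With library size only, the median of all genes moved to -0.23, which makes each change relative to that scale lower, and the share of called genes higher in neurons was 33.5%, against 49.2% with TMM.

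Dlx5 was called with upper-quartile factors (-0.39), library size only (-0.50) and a mean of at least 5 CPM (-0.34). It was not called in the other alternatives with all 4 libraries. Dlx6 was not called with DESeq2 (-0.76). Lhx6 turned to -0.025 with library size only and to -0.018 without neuron replicate 2, and Dlx6as1 to -0.046 with library size only. With library size only, both moved down as the median of all genes did, from -0.019 with TMM to -0.23. Leaving out 1 library each gave -0.36 to -0.21 for Dlx5, -1.06 to -0.51 for Dlx6 and -0.018 to 0.37 for Lhx6. It gave -0.26 to -0.22 for Dlx1, -1.01 to -0.81 for Dlx2, 0.71 to 0.78 for Gad1, 0.43 to 0.48 for Gad2, 2.48 to 2.73 for Calb2, 1.08 to 1.38 for Sst and 1.47 to 2.04 for Npy.

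The labels do not say that equal numbers belong together, so numbers were not taken as pairs. The difference between duplicates in NPCs and that in neurons had a correlation of 0.05 over 10992 genes. With 1 difference per group, this value cannot show whether equal numbers are pairs. With the replicate block, Lhx6 was called at 0.17, 1 of the 2 antisense RNAs was called higher in NPCs, and the count of all genes called was 11206.

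Small lists moved as follows. Ventral factors higher in neurons were 4 with upper-quartile factors and 4 with library size only (4 to 7 leaving out libraries). Antisense RNAs higher in neurons were 0 with upper-quartile factors, library size only, the 5 CPM filter and DESeq2 (0 to 1 leaving out libraries), and 1 was higher in NPCs with the first 3 of these (0 to 1). Migration genes higher in NPCs were 2 with upper-quartile factors and 3 with library size only (1 to 2). Other subtype genes higher in NPCs were 2 with each of these scalings. Peptide receptors higher in NPCs were 2 with library size only. With the 5 CPM filter, which tested fewer genes and also moved the changes themselves (Dlx1 to -0.30), migration genes higher in NPCs were 2. The other counts with it were 6 ventral factors, 2 GABA handling genes, 1 GABA receptor and 2 microglia markers higher in NPCs, 0 striatal and 0 Cajal-Retzius markers higher in NPCs, and 2 other subtype genes, 0 peptide receptors, 2 striatal, 1 Cajal-Retzius and 1 olfactory bulb marker higher in neurons. Precision is limited by 2 libraries a group and, for Dlx6 and for Calb2 in NPCs (74.7 and 92 counts), by counts under 100.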
